A study of Mus musculus with 18 samples.

Results

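The genes described here are 10 genes of the contractile actin apparatus that are raised or used in myofibroblasts, namely Acta2, Tagln, Tagln2, Myl9, Cnn1, Cnn2, Tpm1, Tpm2, Tns1 and Actn1. They were chosen by symbol, and each of the 10 was found in both deposited tables, which list 24455 gene symbols for 168FARN and 24532 for LLC1. A filter on low counts left 13540 genes to test in 168FARN, with 10 of the 10 among them, and 12873 in LLC1, with 8 of the 10. Tagln and Cnn1 were too low to test in LLC1 and are given as counts.

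Myofibroblasts are fibroblasts that build stress fibres, bundles of actin filaments on which myosin pulls, and they are known for contracting wounds and the stroma around tumours. Acta2 encodes the smooth muscle actin of these fibres, tropomyosins and calponins lie along the filament, the myosin light chain Myl9 drives contraction when phosphorylated, and alpha-actinin and tensin tie filaments to one another and to adhesions. Many of these genes are controlled by serum response factor, which binds a short element called the CArG box together with cofactors of the myocardin family.

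Cancer cells of 2 mouse lines were profiled by RNA-seq after growth as spheroids, alone or with 3 fibroblasts added per cancer cell. The cancer cells carried GFP and luciferase, and in the study GFP-positive cells were taken from the spheroids by FACS before RNA-seq. 168FARN, a breast cancer line, was grown alone, with cancer-associated fibroblasts (CAFs) from MMTV-PyMT mice that carried a control guide (WT), or with CAFs in which Prrx1, a transcription factor gene, had been targeted with CRISPR/Cas9 (sgPrrx1). LLC1, a Lewis lung carcinoma line, was grown alone or with WT or sgPrrx1 fibroblasts taken from a dorsal wound at day 10. Thus WT and sgPrrx1 name the fibroblasts and not the sequenced cells, and line, fibroblast source and table cannot be told apart. Each line had 3 groups of 3 libraries, 18 libraries in all.

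Total counts ran from 48315037 to 68933002 per library in 168FARN and from 66129117 to 103997557 in LLC1. Both lines expressed Prrx1 alone, at 87.2 to 89.7 CPM in 168FARN and 179 to 227 CPM in LLC1, so its level does not by itself check which fibroblasts were present. In 168FARN it was at 128 to 130 CPM with WT and 111 to 113 CPM with sgPrrx1 CAFs, without overlap, and in LLC1 the groups overlapped. The LLC1 library labelled sgPrrx1 replicate 3 stood apart, with a Pearson r as low as 0.949 against its replicates and 114 CPM of Prrx1, where the other LLC1 libraries had 179 to 227 CPM. Epcam and Cdh1, which define epithelial cells, were at 0.122 CPM or lower in every library of both lines, and the epithelial keratin gene Krt8 was at 323 to 422 CPM in 168FARN but at 0.161 CPM or lower in LLC1. The labels do not say that the libraries of a group came from separate cultures, so the p-values measure only the spread between these libraries.

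Promoter windows of 300 bases, from 250 bases before to 50 bases after the start of transcription, were read from RefSeq (GRCm38.p6) for 9 of the 10 genes, without Tagln. A CArG-like match, that is CC and GG around 6 central bases of which at least 5 are A or T, was present in Acta2, Myl9 and Cnn2, or 3 of 9 windows, where 9.98% of the 32851 windows of the genome held one. With all 6 central bases A or T, the match was present in Myl9 and Cnn2, where 1.63% of all windows held one. The search covered all 300 bases and both strands, since the element reads as itself on the other strand. A second element, MCAT (CATTCC on either strand), was present in Acta2, Tagln2 and Tpm1, where 14.7% of all windows held one. Matches are descriptions of the letters and not binding sites measured here. The matches are shown because 2 of these genes, Acta2 and Myl9, are among those with the largest differences between groups, while Cnn2 has the only CArG-like match among the more abundant genes. Capitals mark the CArG or CArG-like match, and each sequence runs 5′ to 3′ on the strand of its gene. Bases are counted from the start that the RefSeq window uses, which is 34255373 in Acta2, 156775464 in Myl9 and 79988600 in Cnn2. These starts lie 212, 56 and 0 bases inside the outer bounds of the genes given further on, so that both Acta2 matches fall within those bounds.
Acta2, chr19:34255438-34255467, minus strand, match from base -84: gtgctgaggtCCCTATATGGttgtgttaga
Acta2, chr19:34255388-34255417, minus strand, match from base -34: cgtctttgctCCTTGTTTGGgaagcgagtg
Myl9, chr2:156775293-156775322, plus strand, match from base -161: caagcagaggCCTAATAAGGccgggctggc
Myl9, chr2:156775355-156775384, plus strand, match from base -99: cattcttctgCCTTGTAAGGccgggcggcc
Cnn2, chr10:79988534-79988563, plus strand, match from base -56: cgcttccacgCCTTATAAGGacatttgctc

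In the cancer cells alone an abundant set of 5 genes stood above the rest, so that their presence in a library does not by itself show myofibroblasts. Per kilobase of transcript, Tagln2 had the highest level in 168FARN alone, at 321 ± 4.08 CPM per kb (SD, n = 3), ahead of Tpm1 at 184 ± 5.06, Actn1 at 130 ± 1.47, Cnn2 at 62.1 ± 0.893 and Tpm2 at 52.0 ± 2.01. Tns1 followed at 8.60 ± 0.114 CPM per kb. The smooth muscle genes lay far below, with Acta2 at 0.184 ± 0.0353, Tagln at 0.0228 ± 0.0203, Myl9 at 0.0182 ± 0.0316 and Cnn1 at 0.0124 ± 0.0108 CPM per kb, and the last 3 did not differ from one another beyond their spread. LLC1 alone had the same 5 genes on top, from 207 ± 10.5 CPM per kb for Tagln2 to 37.6 ± 3.12 for Tpm2, with Acta2 next at 1.27 ± 0.0492. In LLC1 Tns1 and Tagln were below 0.01 CPM per kb, and Myl9 and Cnn1 had 0 counts. Lengths were those of the longest transcript of each gene in GENCODE, and with the shortest transcript the order within the 5 abundant genes changed while these 5 stayed above the others.

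In 168FARN the 4 smooth muscle genes Acta2, Tagln, Myl9 and Cnn1 were nearly absent from cells alone, were at 1.81 to 9.98 CPM with WT CAFs, and were at 0.440 CPM or lower with sgPrrx1 CAFs. CPM, the depth-normalised read count, was taken over the genes that passed the filter and scaled by the trimmed mean of M values (TMM). Of the 10 genes, 9 rose and Tns1 fell in WT cocultures against cells alone, 6 rose and Tns1 fell in sgPrrx1 cocultures against cells alone, and 9 fell in sgPrrx1 against WT cocultures. Over all tested genes 64.1% passed in the first comparison (33.4% higher and 30.7% lower), 49.7% in the second (25.7% higher and 24.1% lower) and 60.0% in the third (26.9% higher and 33.1% lower), so that passing the test was common and the counts are to be read against these shares. CPM of the groups did not overlap in 10, 7 and 9 of the 10 genes and in 68.3%, 59.4% and 66.2% of all tested genes. The median log2 fold change of the 10 genes was 0.64, 0.27 and -0.37 in the 3 comparisons, and that of all tested genes was 0.01, 0.00 and -0.03. Tagln, Myl9 and Cnn1 passed the filter through the WT libraries, so their differences from that group were in part a condition of being tested. The same holds for other genes near 0 outside the WT group that are named further on, such as Postn, Thy1, Krt19 and Fhl1 in 168FARN and Krt18 and Vgll3 in LLC1. The comparisons share libraries pairwise and are not independent of one another. In bulk RNA a smaller number of cells of a type and less RNA per cell cannot be told apart.

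**Figure D1:**
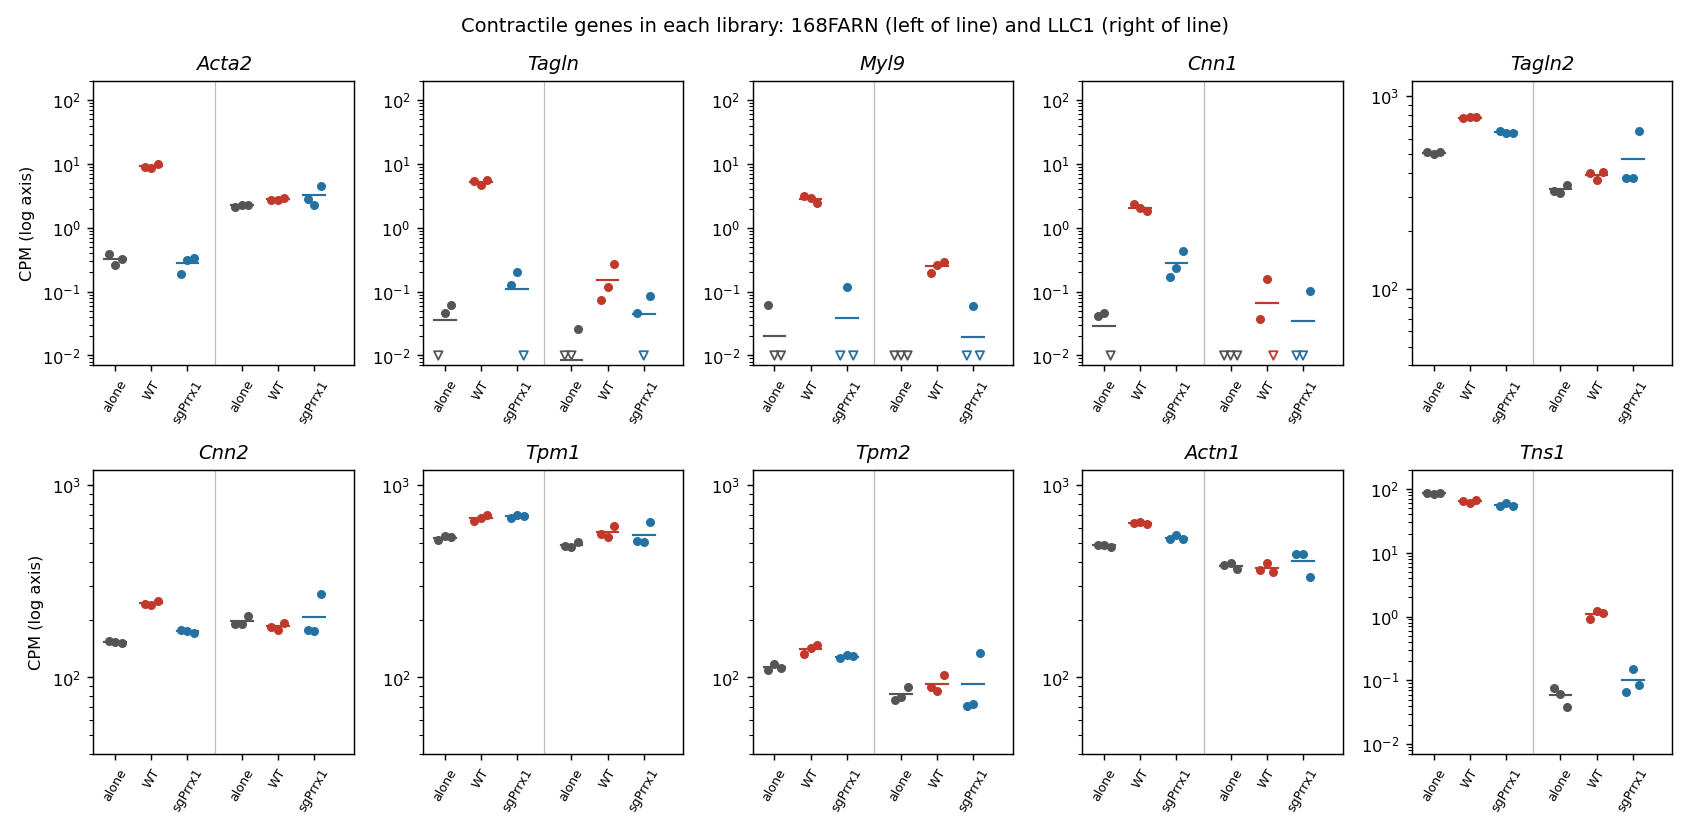
Level of each of the 10 genes in every library, in CPM on a log axis, with 168FARN at the left and LLC1 at the right of each panel, a dot per library, a bar at each group mean and open triangles for libraries with 0 counts. In 168FARN the WT dots of Acta2, Tagln, Myl9 and Cnn1 sit between 1.81 and 9.98 CPM, all above every dot of the other 2 groups, while the 5 abundant genes lie between 70.8 and 778 CPM in each group of both lines.

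Acta2, smooth muscle alpha-actin (chromosome 19, 34240336 to 34255585), was at 0.3904, 0.265 and 0.329 CPM in the 3 libraries of 168FARN alone, at 8.84, 8.72 and 9.98 CPM with WT CAFs, and at 0.188, 0.318 and 0.338 CPM with sgPrrx1 CAFs. The WT libraries were high without overlap, and the other 2 groups overlapped. Mean levels were 0.328 ± 0.0628 alone and 9.18 ± 0.700 with WT CAFs, a ratio of 28.0 and a log2 fold change of 4.82 ± 0.18 (SE; edgeR's quasi-likelihood test with Benjamini-Hochberg adjustment over all tested genes, adjusted p = 2.31e-09). Against WT, sgPrrx1 cocultures were lower by a log2 fold change of -4.99 ± 0.18 (edgeR adjusted p = 4.42e-09). Between sgPrrx1 and alone the change was -0.17 ± 0.27 with a 95% interval of -0.77 to 0.42 (edgeR adjusted p = 0.660), so that changes within that interval were not detectable.

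Tagln encodes transgelin, an actin-bundling protein of smooth muscle (chromosome 9, 45929628 to 45936058). Its counts were 0, 3 and 3 in cells alone, 388, 327 and 277 with WT CAFs, and 6, 12 and 0 with sgPrrx1 CAFs. WT libraries again stood above the rest without overlap. The ratio of WT to alone was 142, with a counting interval of 64.9 to 387 (95%, exact, for counting error only, since reads carried no molecular identifiers), and the log2 fold change was 7.08 ± 0.52 (edgeR adjusted p = 4.93e-07). In sgPrrx1 against WT cocultures it was -5.59 ± 0.44 (edgeR adjusted p = 1.15e-06). For sgPrrx1 against alone Tagln gave 1.49 ± 0.96 (edgeR adjusted p = 0.226), and without the sgPrrx1 library of replicate 3, the one with 0 counts, 2.10 (edgeR adjusted p = 0.0223). Tagln overlaps 2480 bases of Pcsk7, a protease gene, and reads of overlapping genes cannot be told apart where strand was not recorded.

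Myl9, the regulatory light chain of smooth muscle myosin (chromosome 2, 156775408 to 156781657), had 3, 0 and 0 counts in cells alone, 221, 200 and 119 with WT CAFs, and 0, 7 and 0 with sgPrrx1 CAFs. The WT libraries had no overlap with the other groups, and Myl9 was seen in 1 library of each of those. WT was higher than alone by a ratio of 154, with a counting interval of 52.6 to 751 that reflects the 3 counts in cells alone (edgeR adjusted p = 3.95e-06). sgPrrx1 cocultures were lower than WT by a log2 fold change of -6.01 ± 0.59 (edgeR adjusted p = 6.49e-06). The sgPrrx1 level rested on 7 counts in 1 library, and over the alternative fits this value ran from -10.3 to -5.41. Between sgPrrx1 and alone the ratio was 2.26, with a counting interval of 0.515 to 13.5 (edgeR adjusted p = 0.560).

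Cnn1, calponin 1, an actin-binding protein of differentiated smooth muscle (chromosome 9, 22099221 to 22109221), had 2, 3 and 0 counts in cells alone, 167, 139 and 89 with WT CAFs, and 8, 14 and 26 with sgPrrx1 CAFs. The 3 groups did not overlap, with sgPrrx1 in the middle. WT was higher than alone by a log2 fold change of 5.97 ± 0.49 (edgeR adjusted p = 1.15e-06), and sgPrrx1 was lower than WT by -2.85 ± 0.34 (edgeR adjusted p = 2.60e-05). Of these 4 smooth muscle genes, Cnn1 was the one that also rose in sgPrrx1 cocultures against cells alone, by 3.12 ± 0.64 (edgeR adjusted p = 0.00208), a ratio of 9.29 with a counting interval of 3.72 to 29.9.

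The abundant genes moved by less than 1 on the log2 scale, in libraries with little spread. Tagln2, a transgelin found outside muscle (chromosome 1, 172500246 to 172507375), was at 511, 501 and 513 CPM in cells alone, 771, 777 and 778 with WT CAFs, and 661, 644 and 645 with sgPrrx1 CAFs. Cnn2, a calponin of non-muscle cells (chromosome 10, 79988600 to 79995400), was at 155, 152 and 151 CPM, 241, 238 and 249 CPM, and 176, 175 and 170.2 CPM in the same order. Actn1, the alpha-actinin that crosslinks actin filaments (chromosome 12, 80167542 to 80260420), was at 489, 487 and 479 CPM, 637, 639 and 629.8 CPM, and 523, 548 and 523 CPM. In each of these 3 genes the groups did not overlap, with alone lowest, sgPrrx1 in the middle and WT highest. WT exceeded alone by 0.61 ± 0.02 in Tagln2 (edgeR adjusted p = 6.76e-10), by 0.67 ± 0.03 in Cnn2 (9.24e-09) and by 0.39 ± 0.02 in Actn1 (8.29e-08), all as log2 fold changes. sgPrrx1 exceeded alone by less, namely by 0.35 ± 0.02 in Tagln2 (edgeR adjusted p = 7.21e-08), 0.19 ± 0.03 in Cnn2 (0.000317) and 0.13 ± 0.02 in Actn1 (0.000638). The direct log2 comparison of sgPrrx1 with WT gave -0.25 ± 0.02 in Tagln2 (edgeR adjusted p = 8.00e-07), -0.48 ± 0.03 in Cnn2 (1.72e-07) and -0.26 ± 0.02 in Actn1 (2.91e-06).

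The tropomyosins, which wind along actin filaments and regulate access of myosin, rose in both cocultures. Tpm1 (chromosome 9, 67022590 to 67049672) was at 517, 546 and 534 CPM in cells alone, 651, 677 and 694 with WT CAFs, and 673, 698 and 689 with sgPrrx1 CAFs. It rose by a log2 fold change of 0.34 ± 0.03 with WT (edgeR adjusted p = 1.38e-06) and of 0.37 ± 0.03 with sgPrrx1 CAFs (edgeR adjusted p = 1.48e-06). The cocultures overlapped, and their difference was 0.03 ± 0.03 with an interval of -0.04 to 0.09 (edgeR adjusted p = 0.451). Tpm2 (chromosome 4, 43513726 to 43523583) was at 109.5, 118 and 112 CPM in cells alone, 133, 142 and 147 with WT CAFs, and 126, 130.4 and 129 with sgPrrx1 CAFs. It rose by 0.31 ± 0.04 with WT (edgeR adjusted p = 5.18e-05) and by 0.18 ± 0.04 with sgPrrx1 CAFs (edgeR adjusted p = 0.00377). The difference of Tpm2 between sgPrrx1 and WT was -0.13 ± 0.04 (edgeR adjusted p = 0.0171), and it missed the threshold without WT replicate 2 (-0.12), WT replicate 3 (-0.10) or sgPrrx1 replicate 1 (-0.12).

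Tns1, a tensin that links actin to integrin adhesions (chromosome 1, 73910232 to 74124548), was the member that went the other way in 168FARN. It was at 86.9, 84.7 and 85.4 CPM in cells alone, 65.5, 60.8 and 66.8 with WT CAFs, and 54.2, 59.5 and 54.8 with sgPrrx1 CAFs. The groups did not overlap, and sgPrrx1 was lowest. Tns1 overlaps 1837 bases of Gm39664, 1436 of Gm31637 and 116 of Rufy4, and the limit given for Tagln holds for it in both lines. Tns1 fell by 0.41 ± 0.04 on the log2 scale with WT (edgeR adjusted p = 9.56e-06) and by 0.61 ± 0.04 with sgPrrx1 CAFs (edgeR adjusted p = 8.74e-07). sgPrrx1 was lower than WT by a log2 fold change of -0.20 ± 0.04 (edgeR adjusted p = 0.00273).

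**Figure D2:**
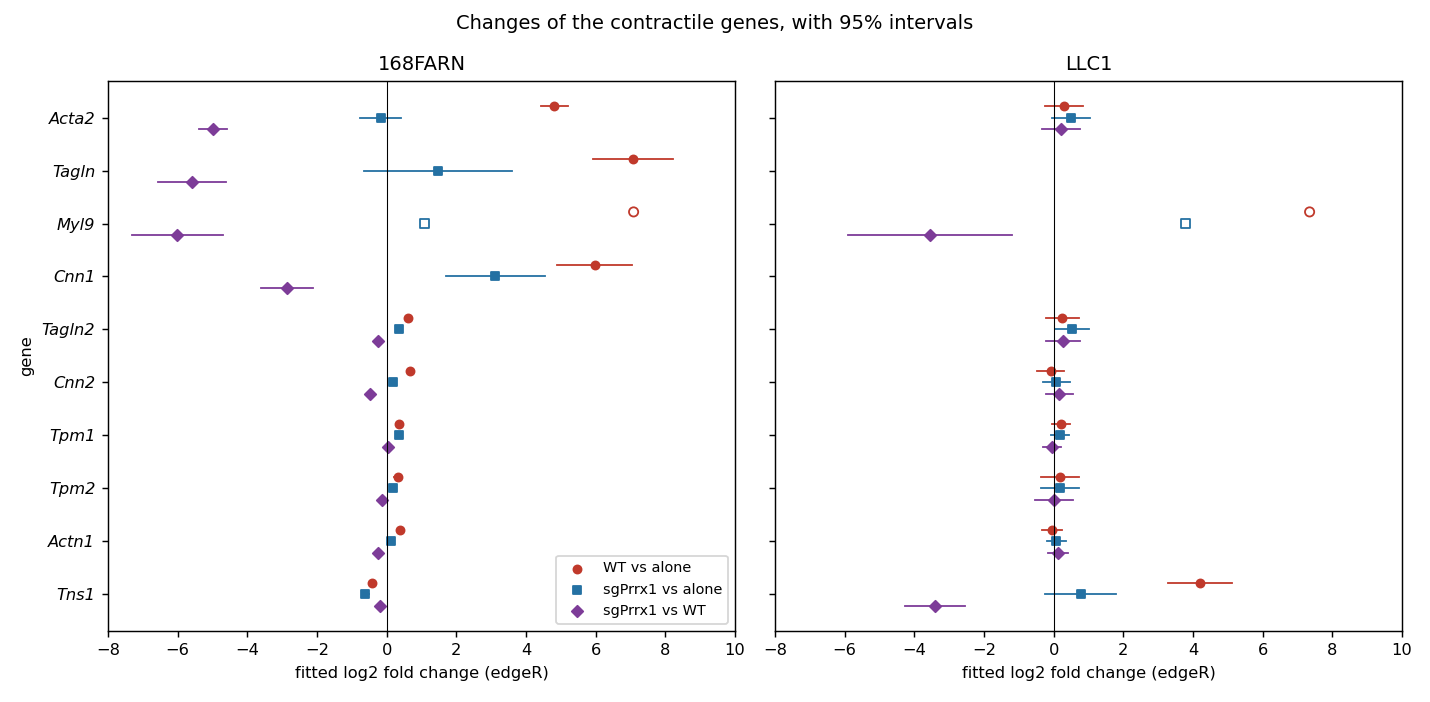
Fitted log2 fold change of each gene with its 95% interval, for the 3 comparisons in 168FARN and in LLC1, where open symbols without intervals mark genes with 3 counts or fewer in 1 of the groups and Tagln and Cnn1 were not tested in LLC1. In 168FARN Acta2, Tagln, Myl9 and Cnn1 lie at 4.82 to 7.09 for WT against alone and at -6.01 to -2.85 for sgPrrx1 against WT, and in LLC1 Tns1 is at 4.19 and -3.41.

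In 168FARN most fibroblast markers were highest with WT CAFs, as were the smooth muscle genes Acta2, Tagln, Myl9 and Cnn1. Against cells alone most tested markers also rose with sgPrrx1 CAFs, while of those smooth muscle genes only Cnn1 did. Of 10 fibroblast markers 8 were tested, and 7 rose with WT CAFs, 5 rose and 1 fell with sgPrrx1 CAFs, each against cells alone, and 8 fell in sgPrrx1 against WT. Of all tested genes 33.4% were higher in the first, 25.7% higher and 24.1% lower in the second, and 33.1% lower in the third. The summed level of the list ran from 122 to 126 CPM in cells alone, from 794 to 865 CPM with WT CAFs and from 219 to 228 CPM with sgPrrx1 CAFs. Col1a1, which encodes a chain of type I collagen, was at 3.74 ± 0.360, 161 ± 11.5 and 10.4 ± 0.207 CPM, and Postn, which encodes the matrix protein periostin, was at 0 counts, 22.1 and 0.0223 CPM. Dcn, the decorin gene, kept more of its level with sgPrrx1 CAFs, at 0.275, 92.8 and 43.3 CPM. The membrane marker Thy1 was at 0 in cells alone and with sgPrrx1 CAFs and at 0.485 CPM with WT CAFs, while Fap and Lum were at 0.175 CPM or lower in all 9 libraries. The part of fibroblast RNA in the changes of the 10 genes was not tested.

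Markers of other cell types were mostly carried by single genes in 168FARN. Mural cell markers, which smooth muscle genes can accompany, summed to 0.247 to 0.670 CPM alone, 1.88 to 2.13 CPM with WT and 0.401 to 0.938 CPM with sgPrrx1 CAFs, and their defining gene Rgs5 was at 0.0834 CPM or lower. Endothelial markers summed to 0.514 to 0.748, 5.85 to 7.06 and 4.02 to 4.72 CPM, with Cdh5 the main source in both cocultures. Leukocyte markers summed to 23.0 to 24.3, 13.7 to 16.5 and 13.4 to 14.5 CPM, nearly all from Cd68, with Ptprc at 0. Epithelial markers summed to 323 to 345, 359 to 388 and 416 to 422 CPM, nearly all from Krt8, and Krt19 was at 0 except with WT CAFs, at 2.90 to 3.18 CPM. Of the tested markers of each list, WT against alone called 3 of 3 mural and 1 of 3 endothelial markers higher, 1 of 1 leukocyte marker lower and 2 of 2 epithelial markers higher. In sgPrrx1 against WT 2 mural and 1 endothelial marker fell, 1 epithelial marker rose and 1 fell, and the leukocyte marker did not pass. Of all tested genes 33.4% were higher and 30.7% lower for WT against alone. For sgPrrx1 against WT 26.9% were higher and 33.1% lower, so that the marker counts are to be read against these shares.

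**Figure D3:**
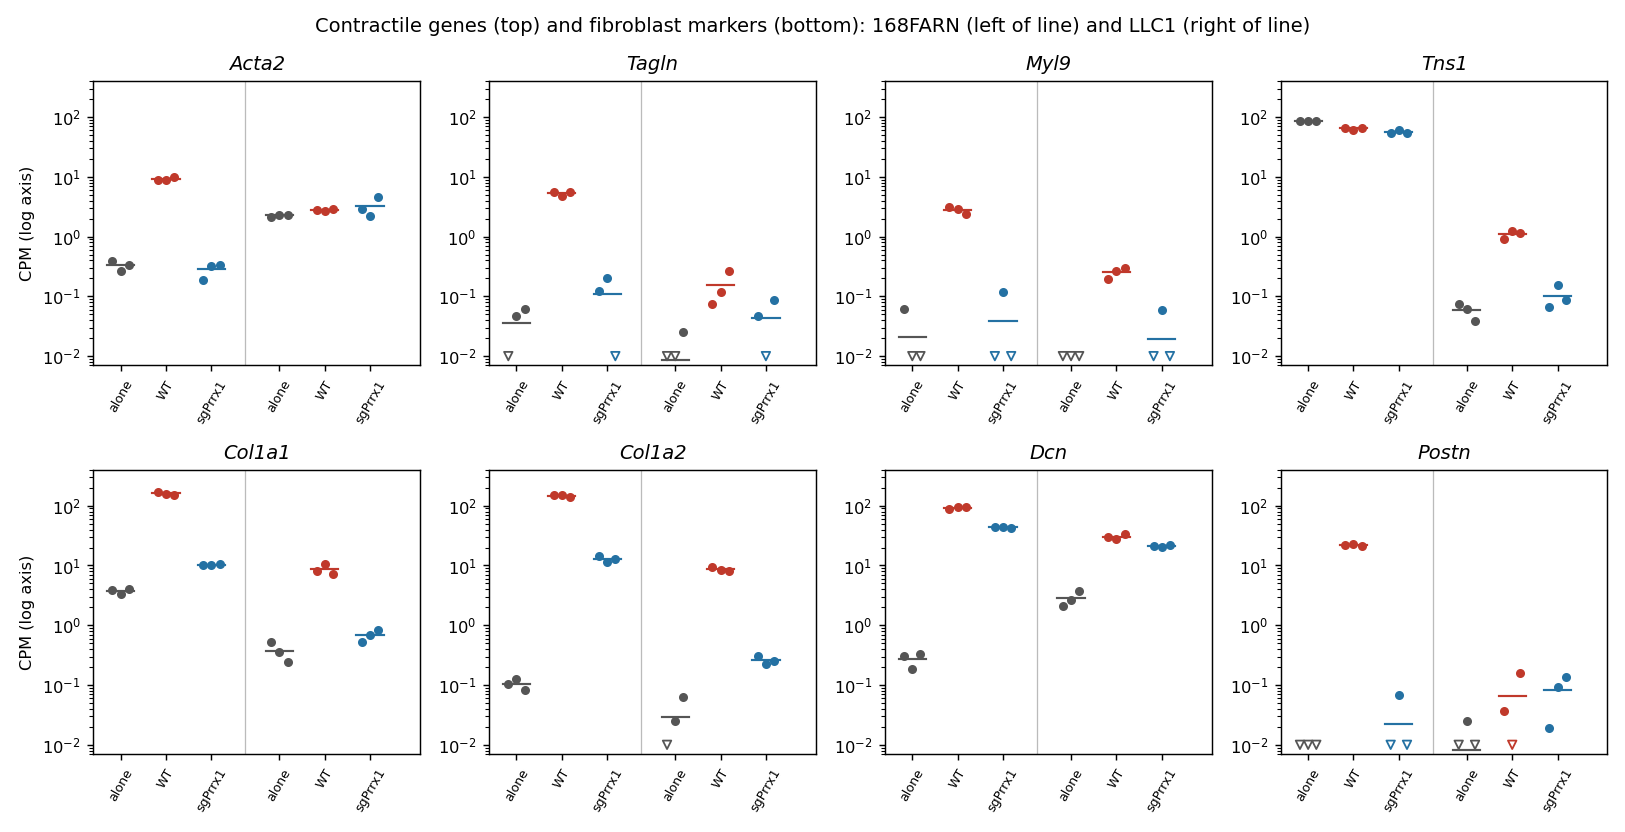
Levels in CPM on a log axis of Acta2, Tagln, Myl9 and Tns1 in the top panels and of the fibroblast genes Col1a1, Col1a2, Dcn and Postn in the bottom panels, a dot per library, with open triangles for libraries with 0 counts. In 168FARN both sets except Tns1 are highest with WT CAFs, and with sgPrrx1 CAFs Dcn stays at 41.9 to 44.2 CPM while Acta2 is at 0.338 CPM or lower.

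In LLC1, 2 of the 8 tested genes differed between WT cocultures and cells alone, where 8.83% of all tested genes did (4.25% higher and 4.58% lower). They were Tns1 and Myl9, and both passed the filter through the WT libraries. The share of all genes rested on single libraries: it was 44.2% without sgPrrx1 replicate 3, where 4 members passed, and 2.09% to 3.05% without any 1 of the alone or WT libraries. Tns1 had 6, 5 and 3 counts in cells alone, 73, 92 and 86 with WT fibroblasts, and 7, 13 and 5 with sgPrrx1 fibroblasts. Its WT libraries, at 0.906, 1.22 and 1.16 CPM, stood above the other 6 libraries, which were at 0.153 CPM or lower and overlapped. Tns1 rose by a ratio of 18.8 and a log2 fold change of 4.19 ± 0.40 with WT fibroblasts (edgeR adjusted p = 0.00151). It was lower with sgPrrx1 than with WT fibroblasts by -3.41 ± 0.37 (edgeR adjusted p = 0.0376), the only member among the 0.0544% of genes, all lower, that passed in that comparison. Without sgPrrx1 replicate 3 the share was 5.69%, with 2.94% higher and 2.75% lower, and Tns1 gave -3.34 (edgeR adjusted p = 0.0116) as the only member. With all 9 libraries as the base, the Tns1 call was lost with a replicate block (edgeR adjusted p = 0.166) and without any 1 of the alone or WT libraries or without sgPrrx1 replicate 1, with log2 fold changes of -3.53 to -3.15 and edgeR adjusted p of 0.056 to 0.243. Between sgPrrx1 and alone Tns1 changed by 0.78 ± 0.45 with an interval of -0.24 to 1.80 (edgeR adjusted p = 0.322).

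Myl9 had 0 counts in each library of LLC1 alone, 16, 20 and 22 with WT fibroblasts, and 0, 5 and 0 with sgPrrx1 fibroblasts. WT libraries did not overlap the others. Against a floor of 3 counts per library, WT was at least 6.73-fold higher than alone (edgeR adjusted p = 0.0359). The Myl9 call was lost without any 1 of the 6 libraries compared, with edgeR adjusted p of 0.0934 to 0.129, and with a replicate block (0.0738). In sgPrrx1 against WT the log2 fold change was -3.55 ± 0.98 (edgeR adjusted p = 0.301), with groups that did not overlap.

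Tagln had 0, 0 and 2 counts in LLC1 alone, 6, 9 and 20 with WT and 5, 0 and 5 with sgPrrx1 fibroblasts. The WT counts were above those of cells alone by a ratio of 18.2, with a counting interval of 4.67 to 156. WT and sgPrrx1 libraries overlapped in CPM. Cnn1 had 0 counts in cells alone, 3, 12 and 0 with WT and 0, 0 and 6 with sgPrrx1 fibroblasts, so that its groups overlapped. Neither gene was tested.

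Acta2 was at 2.16, 2.30 and 2.32 CPM in LLC1 alone, 2.73, 2.71 and 2.91 with WT fibroblasts, and 2.86, 2.24 and 4.55 with sgPrrx1 fibroblasts. WT lay just above alone without overlap, and sgPrrx1 covered both, its highest value in replicate 3. The log2 fold changes were 0.30 ± 0.24 for WT against alone, 0.51 ± 0.24 for sgPrrx1 against alone and 0.20 ± 0.24 for sgPrrx1 against WT (edgeR adjusted p = 0.502, 0.242 and 0.742). The 95% intervals were -0.25 to 0.85, -0.04 to 1.05 and -0.34 to 0.75 in the same order. Without sgPrrx1 replicate 3 Acta2 gave 0.31, 0.19 and -0.13 (edgeR adjusted p = 0.0746, 0.361 and 0.586), so that library sets the sign of the last value.

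The abundant genes of LLC1 spread most in sgPrrx1 replicate 3. Tagln2 was at 324, 315 and 347 CPM in cells alone, 401, 366 and 405 with WT, and 376, 377 and 663 with sgPrrx1 fibroblasts. Cnn2 was at 189, 189.8 and 207 CPM, 184, 177 and 192 CPM, and 177, 174 and 269.8 CPM. Tpm1 was at 485, 476 and 504 CPM, 558, 534 and 611 CPM, and 511, 503 and 640.4 CPM. In Tagln2 and Tpm1 the WT libraries were above cells alone without overlap, and in Cnn2 they overlapped. Tpm2 was at 76.6, 79.1 and 89.4 CPM, 89.0, 84.7 and 102.5 CPM, and 70.8, 73.2 and 134 CPM. Actn1 was at 384, 395 and 365 CPM, 363, 393 and 353 CPM, and 437, 439 and 334 CPM. Both overlapped in each comparison, and replicate 3 of sgPrrx1 was the highest of its group in each of these genes except Actn1, where it was the lowest.

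None of these 5 genes passed in the LLC1 comparisons, with log2 fold changes of -0.08 to 0.25 for WT against alone, 0.08 to 0.52 for sgPrrx1 against alone and -0.04 to 0.27 for sgPrrx1 against WT. For sgPrrx1 against alone no member passed in edgeR, where 4.32% of all tested genes did (2.01% higher and 2.31% lower). That share was 26.7% without sgPrrx1 replicate 3 and 0.398% to 1.61% without any 1 of the other libraries. At an unadjusted p under 0.05 there was 1, where 23.7% of all genes passed, DESeq2 called 0, where 12.3% passed, and limma's voom called 3, where 48% passed. Without sgPrrx1 replicate 3, Tagln2 at 0.26 and Tpm1 at 0.23 passed for WT against alone (edgeR adjusted p = 0.009 and 0.0126), which made 4 of 8 members against 44.2% of all genes, and Actn1 at 0.21 passed for sgPrrx1 against alone (edgeR adjusted p = 0.0387). Without that library the other values of sgPrrx1 against alone that did not pass were 0.20 in Tagln2, -0.15 in Cnn2, 0.06 in Tpm1 and -0.18 in Tpm2. For sgPrrx1 against WT they were -0.06 in Tagln2, -0.08 in Cnn2, -0.17 in Tpm1, -0.36 in Tpm2 and 0.24 in Actn1, so that the sign of Cnn2 and Tpm2 in both comparisons, and of Tagln2 in the last, rested on it. The median log2 fold change over the 8 tested genes was 0.23, 0.34 and 0.07 in the 3 comparisons, and over all genes -0.02, -0.01 and 0.02. CPM of the groups did not overlap in 5, 1 and 2 members, and in 53.2%, 32.4% and 23.6% of all tested genes.

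Fibroblast markers of LLC1 moved in both directions. Of all tested LLC1 genes 8.83%, 4.32% and 0.0544% passed for WT against alone, sgPrrx1 against alone and sgPrrx1 against WT. Of 7 tested fibroblast markers 3 rose and 2 fell, 2 rose and 1 fell, and 2 fell in the same order. Their sum was highest in cells alone, at 1637 to 1719 CPM, against 1183 to 1206 CPM with WT and 1480 to 1567 CPM with sgPrrx1 fibroblasts, most of it Col3a1, at 1579, 1077 and 1441 CPM on average. Col1a1 was at 0.375, 8.60 and 0.681 CPM and Dcn at 2.85, 30.1 and 21.4 CPM in the same order. Mural markers summed to 26.1 to 30.5, 19.7 to 23.4 and 18.7 to 23.0 CPM, mostly Mcam with Notch3, and none passed. Endothelial markers were at 0.235 CPM or lower, leukocyte markers at 15.7 to 17.0, 35.9 to 37.7 and 36.0 to 63.6 CPM from Cd68, which rose in both cocultures, and epithelial markers at 0.702 CPM or lower, with 1 of 1 tested marker, Krt18, higher in WT against alone, which passed the filter through WT. Without sgPrrx1 replicate 3 fibroblast markers gave 3 higher and 3 lower, 2 higher and 1 lower, and 1 higher and 2 lower, and both mural markers fell in each coculture against alone. The Krt18 call was lost without any 1 of the alone or WT libraries and with the replicate block. That of Cd68 was lost for WT without alone replicates 1 or 2 or WT replicates 1 or 3, and for sgPrrx1 without any 1 of the alone libraries. With the block 1 fibroblast marker rose, in place of 2, in sgPrrx1 against alone, and without 1 library 1 to 2 rose and 0 to 1 fell. The block also left 1 fibroblast marker lower, in place of 2, in sgPrrx1 against WT. For WT against alone 1 mural marker fell with the block and without sgPrrx1 replicate 1. The part of the fibroblast markers in the changes of Tns1 and Myl9 was not tested.

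Between the lines, a model of all 18 libraries tested whether a change in LLC1 differed from the same change in 168FARN. For WT against alone 4 members differed, where 29.4% of the 14365 genes in that model did. Acta2 changed by 4.51 less in LLC1 on the log2 scale (-4.51 ± 0.32, edgeR adjusted p = 1.07e-07), Cnn2 by -0.75 ± 0.16 (edgeR adjusted p = 0.00257) and Actn1 by -0.43 ± 0.13 (edgeR adjusted p = 0.0215). Tns1, which fell in 168FARN and rose in LLC1, differed by 4.60 ± 0.26 (edgeR adjusted p = 9.94e-09). For sgPrrx1 against WT 3 members differed, where 19.3% of all genes did, with 5.18 ± 0.33 in Acta2, 0.62 ± 0.16 in Cnn2 and -3.24 ± 0.24 in Tns1 (edgeR adjusted p = 1.59e-07, 0.0136 and 7.24e-07). For sgPrrx1 against alone Tns1 differed by 1.36 ± 0.35 (edgeR adjusted p = 0.0343), where 12.1% of all genes passed. The Tns1 value was lost without LLC1 alone replicate 2 (1.39), alone replicate 3 (1.16) or sgPrrx1 replicate 2 (0.91), and that of Actn1 without LLC1 alone replicate 2 (-0.41) or WT replicate 3 (-0.39). Without LLC1 sgPrrx1 replicate 3, Cnn2 differed by 0.38 rather than 0.62 for sgPrrx1 against WT, and 3 more members passed for sgPrrx1 against alone, namely Cnn2 (-0.34), Tpm1 (-0.30) and Tpm2 (-0.36). In the same fit Tpm1 (-0.22) and Actn1 (0.47) passed for sgPrrx1 against WT and Tagln2 (-0.32) for WT against alone, and the shares of all genes that passed were 52.5% for WT against alone, 28% for sgPrrx1 against alone and 44.5% for sgPrrx1 against WT.

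Cells alone also differed between the lines, in 5 members, where 70.9% of all genes did. Tns1 was lower in LLC1 alone than in 168FARN alone by a log2 difference of -10.37 ± 0.21, at 0.0601 against 82.2 CPM as scaled over the 18 libraries together, which differs from the scaling within a line used above (edgeR adjusted p = 9.43e-15). Acta2 was higher in LLC1 by 2.90 ± 0.25, at 2.34 against 0.315 CPM on that scale (edgeR adjusted p = 5.49e-08). Among members whose response differed between the lines, these 2 differed most. All of those members, Cnn2 and Actn1 included, also started from different levels. Whether the level at the start bears on the response was not tested. Tagln2 differed by -0.52 ± 0.15 and Cnn2 by 0.46 ± 0.11 (edgeR adjusted p = 0.00507 and 0.00208). Actn1 differed by -0.24 ± 0.09 (edgeR adjusted p = 0.0312), and this was lost without any 1 of the 6 libraries of cells alone other than LLC1 replicate 2, with values of -0.25 to -0.22, with no filter (-0.22) and with a replicate block (-0.19).

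Genes around the 10 were taken from 5 lists, in which 54 of 58 genes were tested in 168FARN and 49 in LLC1. In 168FARN 40 of the 54 rose and 4 fell with WT CAFs, 25 rose and 10 fell with sgPrrx1 CAFs, each against cells alone, and 9 rose and 34 fell in sgPrrx1 against WT. Their median log2 fold change was 0.34, 0.09 and -0.24. Of all tested genes 33.4% were higher and 30.7% lower, 25.7% and 24.1%, and 26.9% and 33.1% in these comparisons. The counts per list below are to be read against these shares. Of all tested LLC1 genes 8.83%, 4.32% and 0.0544% passed in the 3 comparisons. Of the list genes in LLC1 3 rose and 1 fell, 2 rose and none fell, and none passed in edgeR. At an unadjusted p under 0.05 the last count was 7, where 12% of all genes passed, and DESeq2 gave 2 and voom 30, where 2.62% and 36.4% passed. Without sgPrrx1 replicate 3 these LLC1 counts were 23, 13 and 3 of the genes, where 44.2%, 26.7% and 5.69% of all genes passed, so that they lay near the share of all genes. Without any 1 of the alone or WT libraries they were at most 1. With a block for the replicate number, which paired the sgPrrx1 and alone libraries of LLC1, 1 gene rose in place of 2 in that comparison.

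Of the 9 tested smooth muscle contractile genes 4 rose with WT CAFs in 168FARN, and in sgPrrx1 against WT 3 fell and 1 rose. Each time 4 of 9 passed, which is below the 64.1% and 60.0% of all tested genes that passed. Actg2, smooth muscle gamma-actin, went from 2.39 ± 0.538 CPM alone to 4.34 ± 0.123 with WT and 2.67 ± 0.371 with sgPrrx1 CAFs. Smtn, which encodes smoothelin, went from 121 ± 3.13 to 187 ± 7.23 and 129 ± 3.66 CPM, and Cald1, the caldesmon gene, from 504 ± 3.31 to 650.4 ± 22.04 and 461 ± 2.07 CPM. The fourth, Csrp1, rose by a log2 fold change of 0.15 with WT CAFs and by a further 0.10 in sgPrrx1 against WT. Against cells alone 2 rose and 3 fell with sgPrrx1 CAFs, among them Cald1 at -0.13 and Mylk, the myosin light chain kinase gene, at -0.46. Myh11, the smooth muscle myosin heavy chain, was too low to test, and the cofactor gene Myocd had 0 counts in every library. In LLC1 Smtn rose by 0.43 on the log2 scale with sgPrrx1 fibroblasts (edgeR adjusted p = 0.0334), a call lost with the replicate block (0.0537) and without any 1 library other than sgPrrx1 replicate 3 (0.0660 to 0.162).

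All 9 tested paralogs of the 10 genes rose with WT CAFs in 168FARN, 5 rose and 2 fell with sgPrrx1 CAFs, and 5 fell and 1 rose in sgPrrx1 against WT. Tns3, a tensin, went from 132 ± 2.28 to 238 ± 0.984 and 177 ± 1.48 CPM, so it rose where Tns1 fell. Tns4 also rose, by 0.66 with WT and by 0.92 with sgPrrx1 CAFs on the log2 scale. Cnn3, the third calponin, and the tropomyosin gene Tpm4 fell by 0.39 and by 0.31 on the log2 scale in sgPrrx1 against WT. How reads that match more than 1 gene of such families were counted is not given in the sources used here.

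Of the 14 non-muscle actomyosin genes, 10 rose and 2 fell with WT CAFs, 8 rose and 1 fell with sgPrrx1 CAFs, and 9 fell and 4 rose in sgPrrx1 against WT. Myh10, non-muscle myosin heavy chain IIB, had 0 counts in 168FARN alone and was at 7.79 ± 0.378 CPM with WT and 1.66 ± 0.551 CPM with sgPrrx1 CAFs, which is at least 137-fold and at least 29.2-fold higher. Myh9, heavy chain IIA, was present throughout, at 535 ± 9.04, 954 ± 19.2 and 645 ± 18.5 CPM. Cytoplasmic actin rose too, with Actg1 up by a log2 fold change of 0.58 and Actb by 0.44 with WT CAFs. In LLC1 Actb rose by 0.46 with WT and by 0.61 with sgPrrx1 fibroblasts (edgeR adjusted p = 0.0430 and 0.0288), and Rhoa, a GTPase gene that drives stress fibres, rose by 0.44 with WT fibroblasts (edgeR adjusted p = 0.0210). The Actb call with WT was lost without any 1 of the alone or WT libraries or sgPrrx1 replicate 2 (edgeR adjusted p of 0.0576 to 0.171), and the one with sgPrrx1 without any 1 of the libraries other than sgPrrx1 replicates 1 and 3 (0.0597 to 0.150). The Rhoa call was lost without any 1 of the alone or WT libraries (0.0525 to 0.107).

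Of the 16 stress fibre and focal adhesion genes 11 rose and 2 fell with WT CAFs, 7 rose and 3 fell with sgPrrx1 CAFs, and 13 fell and 2 rose in sgPrrx1 against WT. Fblim1, which encodes migfilin, went from 65.0 ± 4.26 to 124 ± 5.39 and 91.4 ± 2.23 CPM, and Zyx, the zyxin gene, from 138 ± 2.01 to 234 ± 28.2 and 192 ± 7.34 CPM. Vcl, which encodes vinculin, was at 155 ± 0.543, 221 ± 5.08 and 152 ± 2.53 CPM. In LLC1 Parva, which encodes a partner of integrin-linked kinase, fell by 0.42 on the log2 scale with WT fibroblasts (edgeR adjusted p = 0.0135), a call lost without any 1 of the alone or WT libraries (0.0580 to 0.0799).

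In the list of SRF and cofactors, which also held the TEAD cofactor gene Vgll3, 6 of 7 genes were tested. Of these, 6 rose with WT CAFs, 3 rose and 1 fell with sgPrrx1 CAFs, and 4 fell and 1 rose in sgPrrx1 against WT. Srf was at 66.5 ± 3.19, 84.1 ± 3.67 and 75.6 ± 2.003 CPM, and its cofactor gene Mrtfa at 57.9 ± 1.44, 91.2 ± 2.52 and 74.9 ± 1.40 CPM. Vgll3, a cofactor of TEAD factors, was at 3.19 ± 0.527, 7.06 ± 0.238 and 2.18 ± 0.392 CPM, lowest with sgPrrx1 CAFs. Fhl1, a LIM protein gene, was at 0.486 ± 0.111 CPM with WT CAFs and had 0 counts in the other 2 groups, so that it was at least 8.57-fold above alone and at least 8.92-fold lower in sgPrrx1 than in WT. In LLC1 Vgll3 had 0 counts alone and with sgPrrx1 fibroblasts and 0.402 ± 0.104 CPM with WT fibroblasts, at least 10.7-fold above alone (edgeR adjusted p = 0.0164). That call was lost without any 1 of the alone or WT libraries other than alone replicate 3 (0.0553 to 0.0911), and with a replicate block (0.0837).

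**Figure D4:**
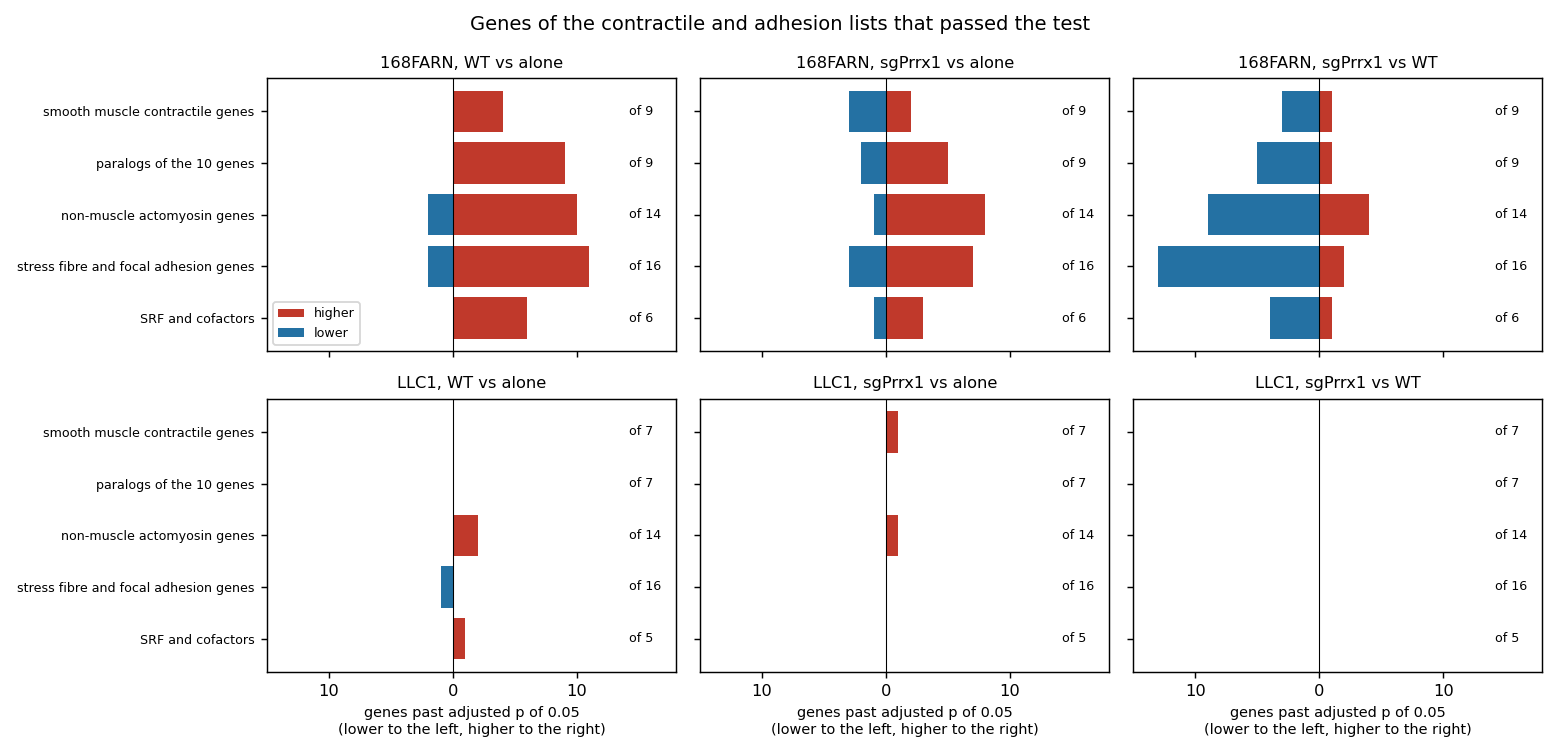
Number of genes of each list past an adjusted p of 0.05, higher to the right of 0 and lower to the left, for the 3 comparisons in each line, with the number tested beside each bar. In 168FARN bars to the right prevail for WT against alone (40 of 54 tested genes higher over the 5 lists) and bars to the left for sgPrrx1 against WT (34 lower), and in LLC1 the bars are short. Of all tested 168FARN genes 33.4% were higher for WT against alone and 33.1% lower for sgPrrx1 against WT.

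The pattern of Acta2 over the 9 libraries of 168FARN was most like that of Tgfbi, Alcam and Usp22, with a Pearson r of log2 CPM of 0.995, 0.994 and 0.993, among 10875 genes with a mean of at least 100 counts. Of the other members, Cnn2 was at rank 505, Actn1 at 776, Tagln at 1254, Tagln2 at 2171, Tpm2 at 2487, Tpm1 at 4211 and Tns1 at 6022. Myl9 and Cnn1 had a mean below 100 counts and were not ranked, so the order holds only for the members ranked. With a prior count of 2 in place of 0.5, Tagln moved to rank 588, ahead of Actn1 at 767, and Pygl took the place of Usp22 with an r of 0.994. In LLC1 the 3 most alike of 11002 genes were D5ertd605e, Msrb1 and Gfer, with r of 0.979, 0.978 and 0.975. Tagln2 was the first of the members ranked, at rank 164, and Tagln, Myl9, Cnn1 and Tns1 were not ranked there. The 9 points share their group means, and in LLC1 the single high library sgPrrx1 replicate 3, so these are descriptions of 9 libraries.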

How the data were processed

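Read counts per gene were deposited by the authors in 1 table per line, 18 libraries in all. The authors trimmed paired 100 bp reads with Trimmomatic, aligned them with STAR to mm10 and counted per symbol with HTSeq, and the kit did not mark strand. The methods go on, after a sentence on human CAFs, to a batch correction with ComBat-seq, and whether it was applied to these counts is not given in the sources used here. In 168FARN 72 genes and in LLC1 61 genes, none of those listed here, had 1 and the same count in all 9 libraries. edgeR 4.0.16 in R 4.3.3 was applied to the deposited counts (filterByExpr with a minimum count of 10, TMM, glmQLFit and glmQLFTest, two-sided). The 9 libraries of a line were fitted together with a mean per group, 3 comparisons were made, and p-values were adjusted by Benjamini-Hochberg over all genes tested, with a threshold of 0.05. Intervals used the degrees of freedom of that test. Differences between lines came from the same fit over 18 libraries. Alternatives were DESeq2 1.42.0, limma 3.58.1 with voom and quality weights, other scalings and filters, a replicate block, the 2 groups alone, and leaving out each library. Fits were tested on simulated data. Replicates differed by more than sampling noise, with a chi-square per degree of freedom of at least 10.6. All 3 pairs of libraries with the same number deviated together, with r over 0.1, only between sgPrrx1 and alone in LLC1 (r across genes of 0.131, 0.249 and 0.419), and there the number was taken, from the data, to pair them. Alternatives for named list genes and marker lists in LLC1 were chosen after seeing the data. The 10 genes were named in every comparison, with up to 4 genes per list by size of change among those past the threshold, fibroblast markers, and the 3 genes most like Acta2. Other marker genes and Myh11, Myocd and Mylk were named after their values were seen. The 10 genes and all lists (5 pathway lists and markers of fibroblasts, mural, endothelial, leukocyte and epithelial cells) were chosen with earlier results of these data known. CPM per kb used GENCODE vM1 lengths. Positions and sequences are from RefSeq, GRCm38.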

Additional observations from a re-analysis of the deposited data

Results flagged for a closer look

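Changes that differed between 168FARN and LLC1 in the model of all 18 libraries, as LLC1 minus 168FARN on the log2 scale, are listed here. For WT against alone they were -4.51 in Acta2, -0.75 in Cnn2, 4.60 in Tns1 and -0.43 in Actn1. For sgPrrx1 against WT they were 5.18 in Acta2, 0.62 in Cnn2 and -3.24 in Tns1, and for sgPrrx1 against alone 1.36 in Tns1. The lines also differ in the source of their fibroblasts, and the 2 cannot be told apart.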

How the results depend on the processing

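In 168FARN the 10, 7 and 9 members called stayed within 1 of these counts in each alternative except a filter of at least 10 counts in every library, which removed low genes and left 6 for WT against alone and 5 for sgPrrx1 against WT. Leaving out 1 library gave 8 to 9 for sgPrrx1 against WT and 7 to 8 for sgPrrx1 against alone. Of single values in 168FARN, 428 of those called kept their call and 4 lost it.

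In LLC1 the 2 members called for WT against alone became 1 without a filter, 0 with at least 10 counts in every library, 5 with voom, 4 with only the 2 groups compared and 1 to 4 without 1 library. For sgPrrx1 against alone 0 became 3 with voom and 0 to 1 without 1 library. For sgPrrx1 against WT 1 became 0 with at least 10 counts or only the 2 groups, 5 with voom and 0 to 1 without 1 library. Genes of the 5 lists for WT against alone, 4 in the fit reported, became 13 with DESeq2, 8 with library totals, 35 with voom, 21 with 2 groups and 0 to 23 without 1 library. For sgPrrx1 against alone 2 became 10, 23 with voom, 0 with 2 groups and 0 to 13 without 1 library, and for sgPrrx1 against WT 0 became 2, 30 with voom and 0 to 3. Of all LLC1 genes, in the order WT against alone, sgPrrx1 against alone and sgPrrx1 against WT, 58.6%, 48% and 36.4% passed with voom, 14.8%, 12.3% and 2.62% with DESeq2, and 40.7%, 0.215% and 0.0866% with 2 groups, so that the higher counts came with higher shares of all genes. Where voom differed, the cause was not tested.

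Line differences for WT against alone, 4 members, became 2 with at least 10 counts, 6 with voom and 3 to 5 without 1 library. For sgPrrx1 against alone 1 became 0 with at least 10 counts, 4 with voom and 0 to 4 without 1 library, and for sgPrrx1 against WT 3 became 5 with DESeq2, 1 with at least 10 counts, 9 with voom and 3 to 5 without 1 library. Voom passed 60.7% of all genes in the first of these, 41.2% in the second and 54.9% in the third. The 5 members that differed between cells alone became 3 with at least 10 counts and 4 to 6 without 1 library. Under voom 4 values that had not passed changed sign, namely Cnn2 in LLC1 sgPrrx1 against alone (-0.12), Tpm2 in LLC1 sgPrrx1 against WT (-0.32), and the line differences of Tagln2 for sgPrrx1 against alone (-0.12) and Tpm2 for sgPrrx1 against WT (-0.21).

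With the replicate number as a block, LLC1 members called became 1 for WT against alone and 0 for sgPrrx1 against WT, and genes of the lists 1 for sgPrrx1 against alone, while 168FARN counts stayed at 10, 7 and 9. Between cells alone the block took the call of Actn1 (-0.19, edgeR adjusted p = 0.0969) and gave one to Tpm2 (-0.46, 0.0183), and it gave a line difference of 0.36 in Actn1 for sgPrrx1 against WT (0.0325). Outside sgPrrx1 against alone in LLC1 the number was taken only to name libraries, with correlations of -0.07 to 0.06 in 168FARN and -0.04 to 0.24 in the other LLC1 comparisons. The highest of these lay above the lowest for sgPrrx1 against alone, 0.131, so whether those LLC1 libraries were paired was not settled. Depth limits Tagln, Myl9 and Cnn1 in cells alone and in LLC1, where single counts decide the ratio, and Myl9 in 168FARN with sgPrrx1 CAFs.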
